A study of Homo sapiens with 6 samples.

Results

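The 9 genes described here, SOX2, SOX4, SOX9, SOX11, OLIG2, FABP7, PROM1, MSI1 and BMI1, mark or maintain stem-like and proneural states of glioma cells, and were taken by name from 20046 genes that probes of the array name. On the Illumina HT-12 version 4 bead array they are read by 11 of 47231 probes, 2 each for SOX2 and SOX11 and 1 for each other gene. They were measured in U251, an established human glioblastoma line grown with serum, 5 days after lentiviral transduction with shCypB, an shRNA that targets cyclophilin B (3 arrays), or with shCON, a non-target control shRNA (3 arrays). PPIB encodes cyclophilin B, which helps proteins fold in the endoplasmic reticulum by turning proline bonds, and the series asks what glioblastoma cells need it for. Both shRNAs were expressed from the same vector backbone, pLKO1.5, and replicates are described in the labels as biological. 1 shRNA against cyclophilin B was used, so loss of the target and other effects of that shRNA cannot be told apart.

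As background, SOX proteins bind DNA through an HMG box. SOX2 maintains neural stem cells, SOX9 acts in the switch to glial fates, and the related pair SOX4 and SOX11 act in neuronal progenitors. OLIG2 is a basic helix-loop-helix factor of oligodendrocyte progenitors and a marker of proneural glioma. FABP7 is the brain fatty acid binding protein of radial glia, PROM1 is the membrane glycoprotein CD133 used to sort glioma stem cells, MSI1 is an RNA-binding protein of neural progenitors, and BMI1 is a subunit of Polycomb repressive complex 1 (PRC1).

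Of the 9 genes, 6 were detected on enough arrays to be tested, and their responses were split. SOX4 and SOX2 were higher in shCypB cells, FABP7 and SOX9 were lower, and BMI1 and MSI1 did not pass the test. A probe was taken as detected on an array at a detection p below 0.05, tested if detected on at least 3 of the 6 arrays, and called at a limma p below 0.05 after Benjamini-Hochberg adjustment over the 17608 tested probes. With each gene read by its brightest tested probe, 2 of the 6 genes rose and 2 fell, while 43.8% of all 10517 tested genes were called (23.1% higher and 20.8% lower). The arrays of the groups did not overlap for 5 of the 6, against 56.8% of all genes. By probe, 3 of 7 rose and 2 fell, beside 38.5% of all probes called (20.3% higher and 18.2% lower), and 4 lay higher and 2 lower with no overlap, beside 26.6% and 23.8% of all probes (50.4% in all). The median log2 change was 0.15 over the 6 genes and 0.03 over all genes. SOX11, OLIG2 and PROM1 were not detected on any array.

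On each array 16597 to 18700 probes (35.1% to 39.6%) were detected. Pearson r of log2 signal was 0.957 to 0.965 for pairs of arrays from different groups and 0.987 to 0.994 for pairs within a group. The PPIB probe was detected on 0 of 3 shCypB arrays and on 3 of 3 shCON arrays. Taken at group means, it was at least 1.45-fold lower in shCypB cells. This figure sets the mean shCON signal (5.69) against the mean lowest detected signal of the shCypB arrays (5.15). That floor was used because the shCypB signal was not well above background. The figure takes no account of the spread of the shCON arrays (SD 0.35). The probe was dim on the shCON arrays too, with log2 signals of 6.05, 5.68 and 5.35. The lowest detected signals on those arrays were 5.29, 5.15 and 5.28, so the probe gives only a weak check of the knockdown. Among markers of a glioma line, GFAP, VIM, NES and CD44 were detected on all 6 arrays and S100B on none. GFAP and NES moved with the group, with log2 changes of -1.84 ± 0.14 (adjusted p = 0.00013) and -0.66 ± 0.10 (adjusted p = 0.0022), while VIM (-0.23) and CD44 (0.22) did not pass. MBP and MAG, of 4 oligodendrocyte markers with a probe, were each detected on 0 shCypB arrays and 1 shCON array, and MOG and MOBP on none. The oligodendrocyte list summed to 276 to 305 on shCypB arrays and 261 to 316 on shCON arrays. No epithelial marker of 5 was detected on any array, while the leukocyte and endothelial lists were mixed. Of 5 leukocyte markers PTPRC and CD3E were undetected on all 6 arrays, CD68 was detected on 6, CD14 on 5 and AIF1 on 3, and the list summed to intensities of 582 to 615 on shCypB arrays and 521 to 634 on shCON arrays. Of 5 endothelial markers CDH5, CLDN5 and TIE1 were undetected on all 6, VWF was detected on 1 shCypB and 2 shCON arrays and PECAM1 on 2 shCypB arrays, and the list summed to 326 to 365 on shCypB arrays and 316 to 389 on shCON arrays. The summed intensity of 5 neuron markers moved with the group, at 773 to 810 on shCypB arrays and 458 to 572 on shCON arrays, through SYT1 and MAP2. MAP2 was detected on all 6 arrays, but SYT1 on 3 of 3 shCypB and only 1 of 3 shCON arrays. SNAP25 was detected on 1 shCypB array and 0 shCON arrays, and RBFOX3 and SYP were undetected. The part of these markers in the results below was not tested, and in bulk RNA a change in the share of cells and a change in RNA per cell cannot be told apart.

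For SOX2, SOX4 and FABP7, called genes with an entry in the RefSeq promoter table (GRCh38.p14), the 250 bases before the listed transcription start are shown, because these genes are known to be expressed together in neural progenitors and moved in different directions here. They lie at chr3:181711675-181711924 for SOX2, chr6:21593501-21593750 for SOX4 and chr6:122779466-122779715 for FABP7, all on the plus strand. Capitals mark ACAAAG, a core bound by SOX proteins, and CCAAT, the core of the CCAAT box, on either strand (so CTTTGT and ATTGG also count). No marked stretches overlap.
SOX2: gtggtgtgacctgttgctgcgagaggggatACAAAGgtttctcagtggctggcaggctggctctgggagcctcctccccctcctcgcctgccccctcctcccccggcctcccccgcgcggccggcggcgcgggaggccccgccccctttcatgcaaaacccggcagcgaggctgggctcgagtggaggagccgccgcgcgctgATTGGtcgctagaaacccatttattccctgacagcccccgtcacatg
SOX4: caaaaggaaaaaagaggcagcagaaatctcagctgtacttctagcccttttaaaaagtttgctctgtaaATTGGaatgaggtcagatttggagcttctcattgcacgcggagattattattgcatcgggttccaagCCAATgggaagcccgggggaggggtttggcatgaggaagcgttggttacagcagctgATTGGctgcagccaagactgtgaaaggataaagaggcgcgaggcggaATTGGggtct
FABP7: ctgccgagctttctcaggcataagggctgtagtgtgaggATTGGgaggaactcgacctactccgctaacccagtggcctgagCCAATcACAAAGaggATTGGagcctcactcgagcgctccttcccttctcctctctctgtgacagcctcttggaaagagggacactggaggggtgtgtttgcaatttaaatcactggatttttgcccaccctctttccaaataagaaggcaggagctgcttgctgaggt
ACAAAG occurred once each in the SOX2 and FABP7 windows and 0 times in the SOX4 window, and 13.7% of 35116 such windows in the table hold it. CCAAT occurred once for SOX2, 4 times for SOX4 and 3 times for FABP7, against 32.01% of windows with at least 1. In FABP7 the ACAAAG at 162 to 157 bases before the start lies between CCAAT matches at 168 to 164 and 153 to 149. The matches describe these letters and were not tested for binding.

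SOX4, a transcription factor of the SOXC group that promotes neuronal differentiation and is also linked to TGF-beta signalling, rose most among the 9 genes. Its normalized log2 signal was 10.63, 10.59 and 10.46 on the shCypB arrays, against 9.78, 10.02 and 9.96 on the shCON arrays. All shCypB arrays lay above all shCON arrays, and the gap between the groups exceeded the spread within either. The log2 change was 0.64 ± 0.11 (SE; adjusted p = 0.0028), a fold of 1.55, and 21.6% of all genes had a larger absolute change. Of the other SOXC genes on the array, SOX11 was undetected on all arrays and SOX12 was detected on 1, so neither was tested.

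SOX2, the best known pluripotency and neural stem cell factor of the set, was higher at both of its probes, but narrowly. Probe ILMN_2177156 read 9.18, 9.36 and 9.19 on the shCypB arrays, against 8.80, 8.83 and 9.07 on the shCON arrays. Probe ILMN_1770635 read 8.80, 9.03 and 9.02 on the shCypB arrays, against 8.68, 8.24 and 8.61 on the shCON arrays. At neither probe did the groups overlap, although the nearest arrays were only about 0.1 apart, namely shCypB replicate 1 and shCON replicate 3 at the first probe, and shCypB replicate 1 and shCON replicate 1 at the second. The log2 changes were 0.35 ± 0.11 (adjusted p = 0.045) and 0.44 ± 0.14 (adjusted p = 0.044), or 1.27-fold and 1.35-fold. The call at the first probe was lost when shCypB replicate 1, 2 or 3 or shCON replicate 1 or 2 was left out, with log2 changes of 0.29 to 0.38. At the second probe it was lost without shCypB replicate 1, 2 or 3 or shCON replicate 2 or 3 (0.30 to 0.51). SOX2 lies within the long noncoding gene SOX2-OT, whose own probe was undetected on all 6 arrays.

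BMI1, which stimulates the ubiquitin ligase activity of PRC1 and supports self-renewal of neural stem cells, did not pass the test. Its log2 signal was 10.14, 10.05 and 10.22 on the shCypB arrays, against 9.74, 9.86 and 9.94 on the shCON arrays. The groups did not overlap, and the log2 change was 0.29 ± 0.10 (adjusted p = 0.055; 95% interval 0.06 to 0.52). It passed under 6 of 16 other settings, among them the authors' processed table (0.29, adjusted p = 0.016), and also when genes were fitted on the mean of their tested probes (0.29, adjusted p = 0.034). The RefSeq annotation also holds a COMMD3-BMI1 read-through gene. COMMD3, looked at after the BMI1 values were seen, read 11.42, 11.55 and 11.36 on the shCypB arrays, against 11.09, 11.09 and 11.15 on the shCON arrays, with a log2 change of 0.33 ± 0.09 (adjusted p = 0.026). Whether the BMI1 probe reads BMI1 transcripts, the read-through transcript or both was not tested.

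FABP7, which carries fatty acids in radial glia and in infiltrating glioma cells, changed most of all the members and fell. Its log2 signal was 6.14, 5.87 and 6.21 on the shCypB arrays, against 7.30, 7.22 and 6.92 on the shCON arrays. The groups were separated by more than 0.7 on the log2 scale, and the probe was detected on all 6 arrays. The log2 change was -1.07 ± 0.14 (adjusted p = 0.0010), that is 2.10-fold lower in shCypB cells, and 6.58% of all genes had a larger absolute change. The probe was dim, with deposited intensities of 115 to 133 on shCypB arrays and 142 to 216 on shCON arrays, so the size depends on the background correction. With no background correction the log2 change was -0.63 and with the authors' processed table -0.72, both still called.

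SOX9, of the SOXE group, needed for astrocyte specification, was lower after normalization. Its log2 signal was 9.40, 9.44 and 9.57 on the shCypB arrays, against 9.91, 9.89 and 9.94 on the shCON arrays. The groups did not overlap, and the shCON arrays were the tightest of any member, with an SD of 0.02. The log2 change was -0.45 ± 0.09 (adjusted p = 0.0077), or 1.36-fold lower in shCypB cells. The deposited intensities did overlap, at 768 to 885 on shCypB arrays and 779 to 1130 on shCON arrays, so the fall rests on the scaling between arrays. Scaling each array to a common median, in place of quantile normalization, raised the median log2 change of all genes to 0.25, and SOX9 then stood at -0.15 (adjusted p = 0.69), which is -0.41 relative to that median. Under the same scaling SOX2 stood at 0.63 and 0.72 at its probes, BMI1 at 0.57 (adjusted p = 0.065), SOX4 at 0.92 and FABP7 at -0.82. Relative to the same median, SOX2 stood at 0.38 and 0.47, BMI1 at 0.32, SOX4 at 0.67 and FABP7 at -1.07.

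**Figure D1:**
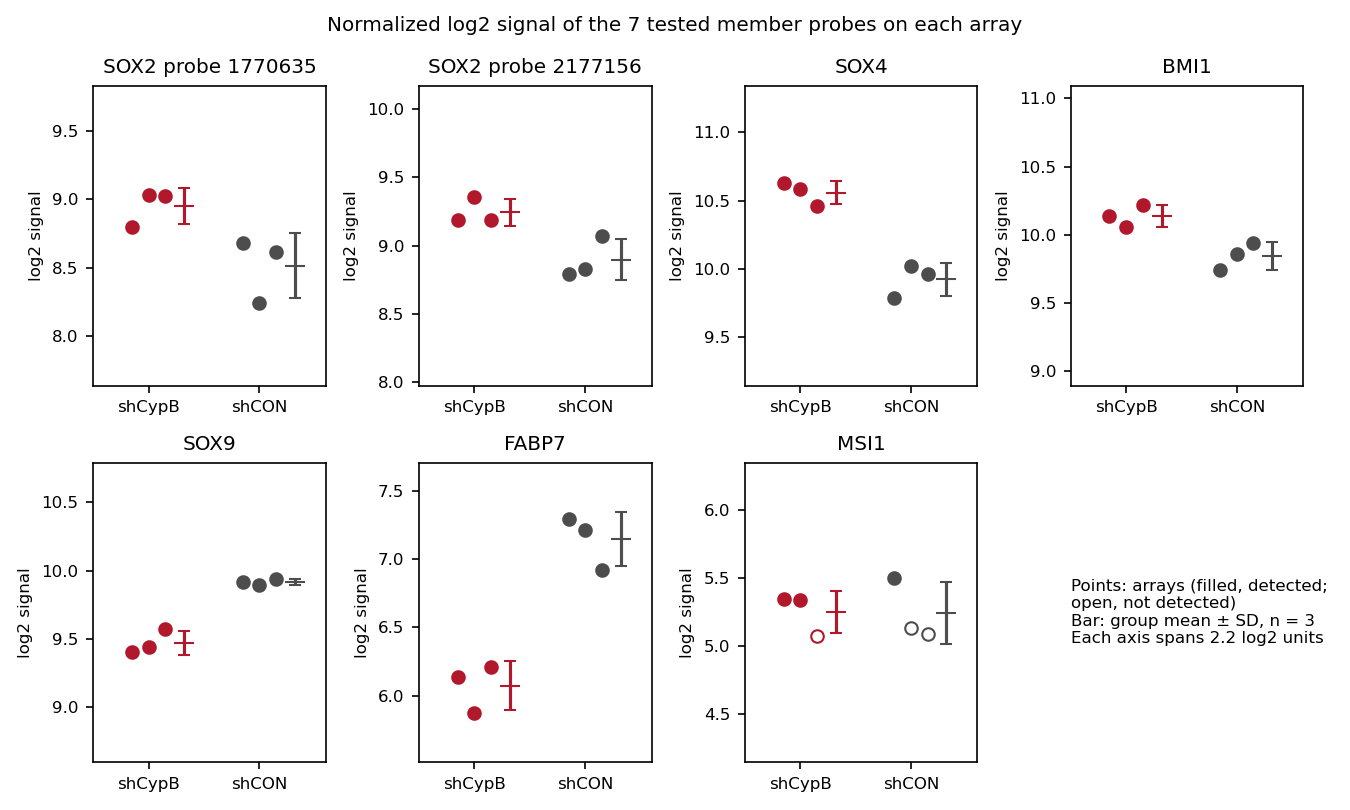
Normalized log2 signal (vertical axis, arbitrary log2 units) of the 7 tested probes of SOX2, SOX4, BMI1, SOX9, FABP7 and MSI1, with 1 point per array, shCypB at left and shCON at right, and bars for mean ± SD (n = 3). SOX4, SOX2 and BMI1 have all shCypB arrays above all shCON arrays, SOX9 and FABP7 have them below, and the groups of MSI1 overlap.

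MSI1, which represses translation of its target mRNAs and keeps neural progenitors undifferentiated, sat at the detection limit. Its deposited intensity was 90.7, 96.9 and 84.1 on the shCypB arrays, against 99.0, 84.9 and 81.0 on the shCON arrays. It was detected on 2 of 3 shCypB arrays and on 1 of 3 shCON arrays, and the groups overlapped. The log2 change was 0.01 ± 0.14 (adjusted p = 0.96), with a 95% interval of -0.32 to 0.34. That interval describes the probe signal, and with a signal so near background it does not bound the change in MSI1 RNA.

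OLIG2, PROM1 and SOX11 were not well above background on any array. OLIG2 had intensities of 67.8, 79.8 and 73.1 on the shCypB arrays, against 71.7, 72.1 and 73.6 on the shCON arrays, with detection p between 0.24 and 0.46. PROM1 had 56.5, 81.3 and 61.2 on the shCypB arrays, against 71.7, 67.6 and 66.8 on the shCON arrays, with detection p between 0.21 and 0.79. All these values lie below the lowest intensity of any detected probe on the same array, which was 83.5 to 93.1. For SOX11, probe ILMN_1769361 ranged from 65.6 to 71.8 on shCypB arrays and from 57.4 to 75.7 on shCON arrays. Probe ILMN_1773459 ranged from 61.1 to 68.0 on shCypB arrays and from 53.5 to 60.5 on shCON arrays. No fold is given for these genes, since neither group could be told apart from background. The arrays therefore hold no OLIG2, CD133 or SOX11 signal to compare, at the sensitivity of these 4 probes.

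**Figure D2:**
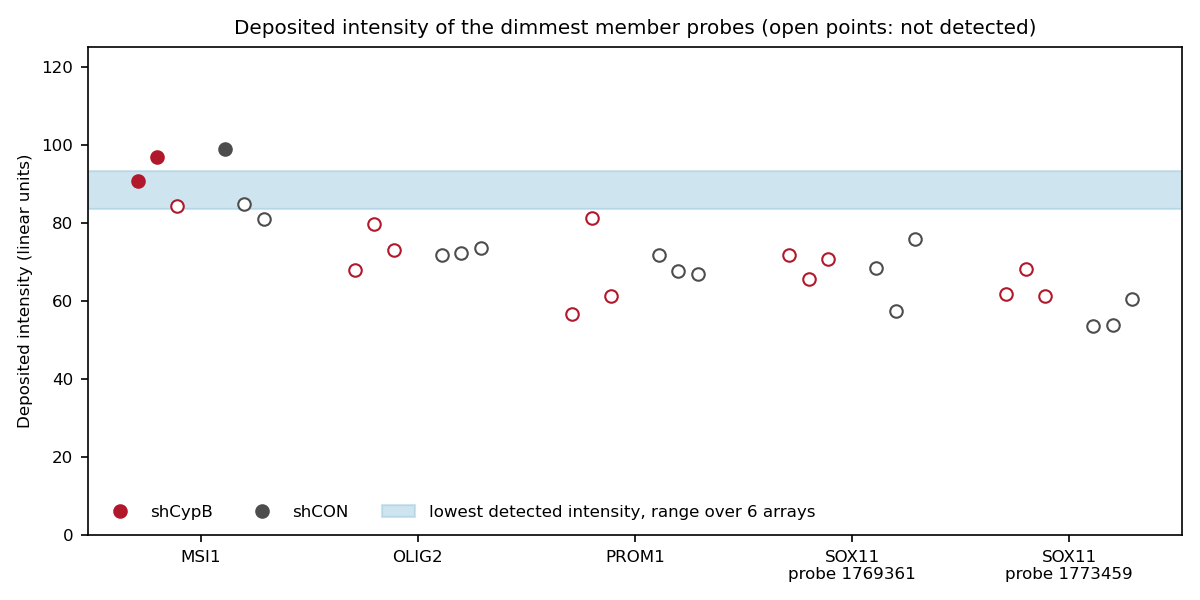
Deposited intensity (vertical axis, linear units) of the MSI1, OLIG2, PROM1 and SOX11 probes on each array, with shCypB left of shCON for each probe. Filled points were detected, open points were not, and the band spans the lowest detected intensity of the 6 arrays (83.5 to 93.1). Only MSI1 has detected points.

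Set beside all tested genes, the changes of the 6 genes were ordinary in size apart from FABP7. The median absolute log2 change was 0.40 over the 6 genes and 0.32 over all genes. BMI1 was exceeded in absolute change by 54.0% of genes, SOX2 by 46.8%, SOX9 by 36.7% and MSI1 by 98.3%.

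**Figure D3:**
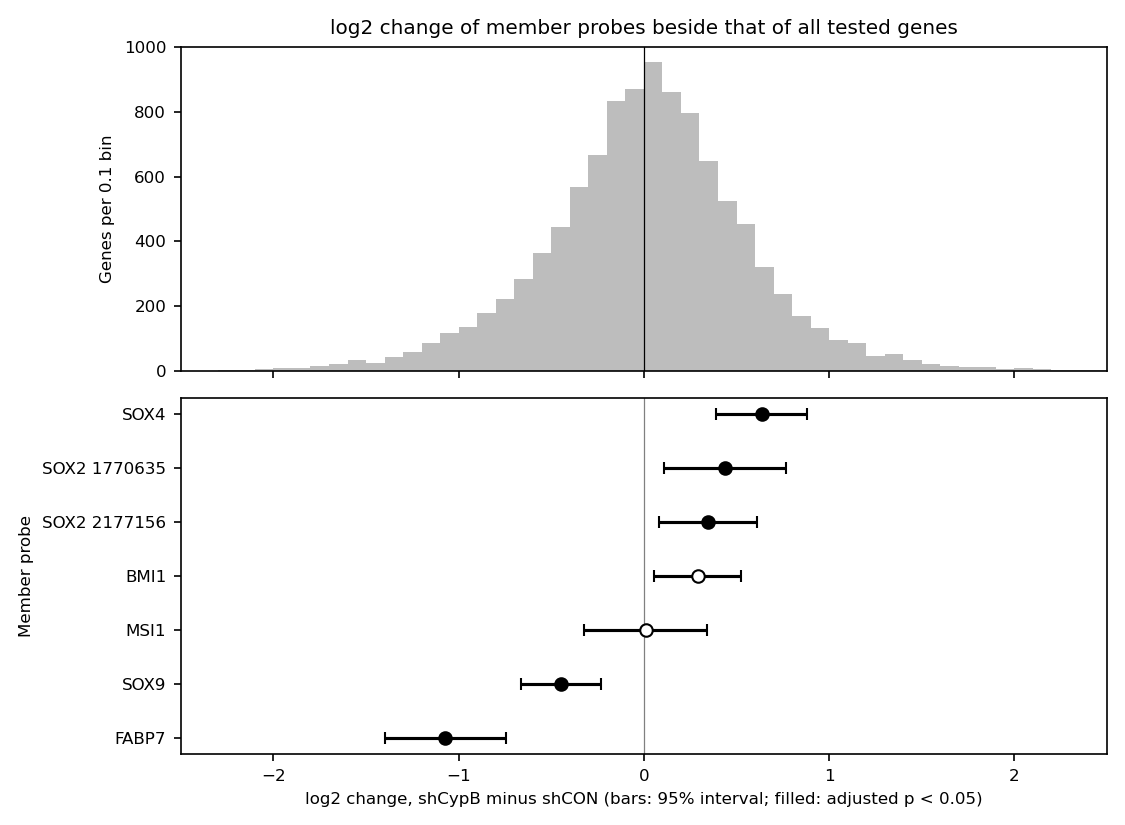
Upper panel, number of genes per 0.1 bin of log2 change (shCypB minus shCON) over the 10517 tested genes. Lower panel, log2 change of each tested member probe with its 95% interval, filled where the adjusted p was below 0.05. SOX4 at 0.64 and FABP7 at -1.07 are the extremes, and the interval of MSI1 spans 0.

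Of 15 other SOX genes on the array 5 were tested, of which 1 rose and 2 fell, beside 23.1% and 20.8% of all genes, with a median log2 change of -0.15. SOX18, a SOXF factor known from endothelial and lymphatic development, read 9.68 ± 0.03 in shCypB and 11.23 ± 0.06 in shCON (SD, n = 3), with a log2 difference of -1.55 ± 0.09 (adjusted p = 4.6e-05). SOX21, known in chick to counteract SOX2 and its relatives during neurogenesis, fell by 0.61 ± 0.13 (adjusted p = 0.010) on the log2 scale, a call lost under median scaling. SOX15 rose by 0.999 ± 0.20 (adjusted p = 0.0071), a size that ranged from 0.52 to 1.25 over 15 other settings, all called. It has no value under the remaining setting, detection p below 0.01 on all 6 arrays, where 0 other SOX genes rose. SOX3, which belongs with SOX2 to the SOXB1 group, had a log2 change of -0.15 ± 0.10 (adjusted p = 0.28), and SOX13 one of -0.02. SOX18 was detected on all 6 arrays, beside the endothelial marker values given above. SOX10 and SOX8, the SOXE relatives of SOX9, and SOX1 were undetected on all arrays.

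Of 18 proneural genes with a probe only 7 were tested, and 1 of them rose and 0 fell, beside 43.8% of all genes called, with a median log2 change of 0.18. Among the 4 genes detected at p below 0.01 on all 6 arrays, 0 rose and 1 fell, with a median of 0.06. Under that filter 2287 of all 8158 genes rose and 2275 fell. CHD7, a chromatin remodeller of neural progenitors, read 6.33 ± 0.17 in shCypB and 5.02 ± 0.32 in shCON (SD, n = 3; adjusted p = 0.0011). It was detected on 3 of 3 shCypB arrays but on only 1 of 3 shCON arrays, so the size of its rise is not fixed by these values. Its fitted log2 change ranged from 0.61 to 1.48 over 15 other settings. CHD7 entered the test through the group where it was higher, so its call adds no support for a rise of the list. The Notch ligand gene DLL3 stood at -0.25 ± 0.10 (adjusted p = 0.081) and the neural POU factor gene POU3F2 at -0.06 ± 0.10 (adjusted p = 0.64). OLIG1, NKX2-2, DCX and SALL2 were undetected on all arrays, and PDGFRA, the receptor gene of proneural glioma, was detected on at most 2 arrays.

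Stem cell and radial glia genes moved in both directions. Of 15 tested, 5 rose and 3 fell, beside 43.8% of all genes called, with a median log2 change of 0.22. Among those that rose, FUT4 was detected on 3 of 3 shCypB arrays and on 0 of 3 shCON arrays. It entered the test only through the group where it was higher, so its call adds no support for a rise of the list. Under median scaling 5 rose and 0 fell, and among the 11 genes detected at p below 0.01 on all 6 arrays 3 rose and 4 fell, with a median of -0.10. ITGA6, an integrin subunit used to enrich glioma stem cells, read 6.22 ± 0.31 in shCypB and 5.13 ± 0.30 in shCON (SD, n = 3; adjusted p = 0.0042). Its probe was detected on 3 of 3 shCypB and 2 of 3 shCON arrays, with the shCON signal near background. The shCON arrays alone would not have brought ITGA6 into the test, so its call adds no support for a rise of the list either. Its fitted log2 change ranged from 0.51 to 1.25 over 15 other settings, and its 2 other probes were undetected on all arrays. PAX6, a radial glia transcription factor, rose by 0.81 ± 0.09 (adjusted p = 0.00063), and its other tested probe by 0.73. ALDH1A3, which makes retinoic acid and marks mesenchymal glioma stem cells, fell by 0.86 ± 0.12 (adjusted p = 0.0013), and TNC, the matrix protein tenascin C, fell by 0.85 ± 0.09 (adjusted p = 0.00050), their other probes by 1.01 and 0.64. MSI2, the paralogue of MSI1, was detected on every array and rose by 0.76 ± 0.11 (adjusted p = 0.0015).

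BMI1 works in PRC1, and its partners were called in both directions. Of 11 tested, 3 rose and 3 fell, a share near the 43.8% of all genes called (23.1% higher and 20.8% lower), with a median log2 change of -0.01. RING1, a catalytic ubiquitin ligase subunit, read 9.59 ± 0.05 in shCypB and 10.27 ± 0.04 in shCON (SD, n = 3), with a log2 difference of -0.68 ± 0.09 (adjusted p = 0.00099). The chromobox genes CBX7 and CBX6, whose products bind methylated histone H3, fell by 0.60 ± 0.11 (adjusted p = 0.0035) and 0.52 ± 0.09 (adjusted p = 0.0037). PHC2, a polyhomeotic subunit, rose by 0.53 ± 0.14 (adjusted p = 0.021). PCGF2, the closest relative of BMI1, had a log2 change of -0.01 ± 0.10 (adjusted p = 0.96). The 3 falls were lost under median scaling, and the count that rose was 0 without shCypB replicate 1, shCypB replicate 3 or shCON replicate 3, 1 without shCON replicate 1, and 2 without either remaining array.

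FABP7 fell while the 2 tested members of its wider lipid-binding family rose, beside 23.1% of all genes higher. FABP4, the adipocyte fatty acid binding protein, read 7.30 ± 0.16 in shCypB and 5.94 ± 0.39 in shCON (SD, n = 3). Its log2 difference was 1.36 ± 0.20 (adjusted p = 0.0016) and ranged from 0.79 to 1.57 over 15 other settings, all called. FABP4 has no value under the remaining setting, detection p below 0.01 on all 6 arrays. CRABP2, which carries retinoic acid to its nuclear receptor, rose by 0.59 ± 0.13 (adjusted p = 0.0094). The other 8 family genes on the array, FABP3 and FABP5 among them, were detected on too few arrays to be tested.

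**Figure D4:**
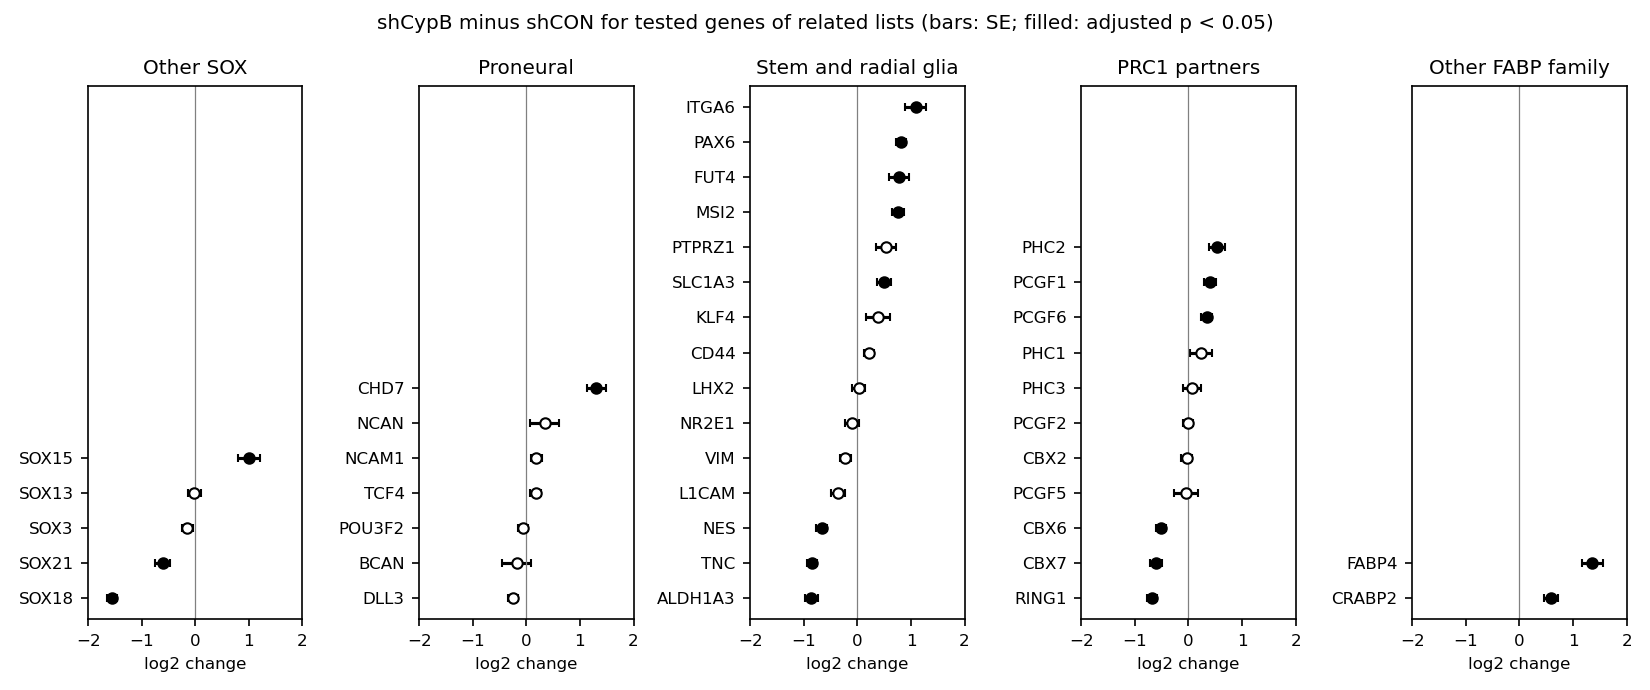
log2 change (shCypB minus shCON, horizontal axis) with its SE for each tested gene of the related lists, filled where the adjusted p was below 0.05. SOX18 at -1.55 and FABP4 at 1.36 lie farthest from 0, and each list other than the FABP family holds genes that did not pass.

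For the called members with the greatest changes, the genes whose log2 signal followed them most closely over the 6 arrays were COL9A2 (Pearson r 0.998) and MRPL17 (0.997) for FABP7, TRAF5 and FBXO31 (both 0.999) for SOX4, and DCAKD (0.999) and ANXA2R (0.997) for SOX9. These values describe 6 arrays that share a division into groups, and 664 to 820 of 10511 genes had an r over 0.95 with each of these members.

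**Figure D5:**
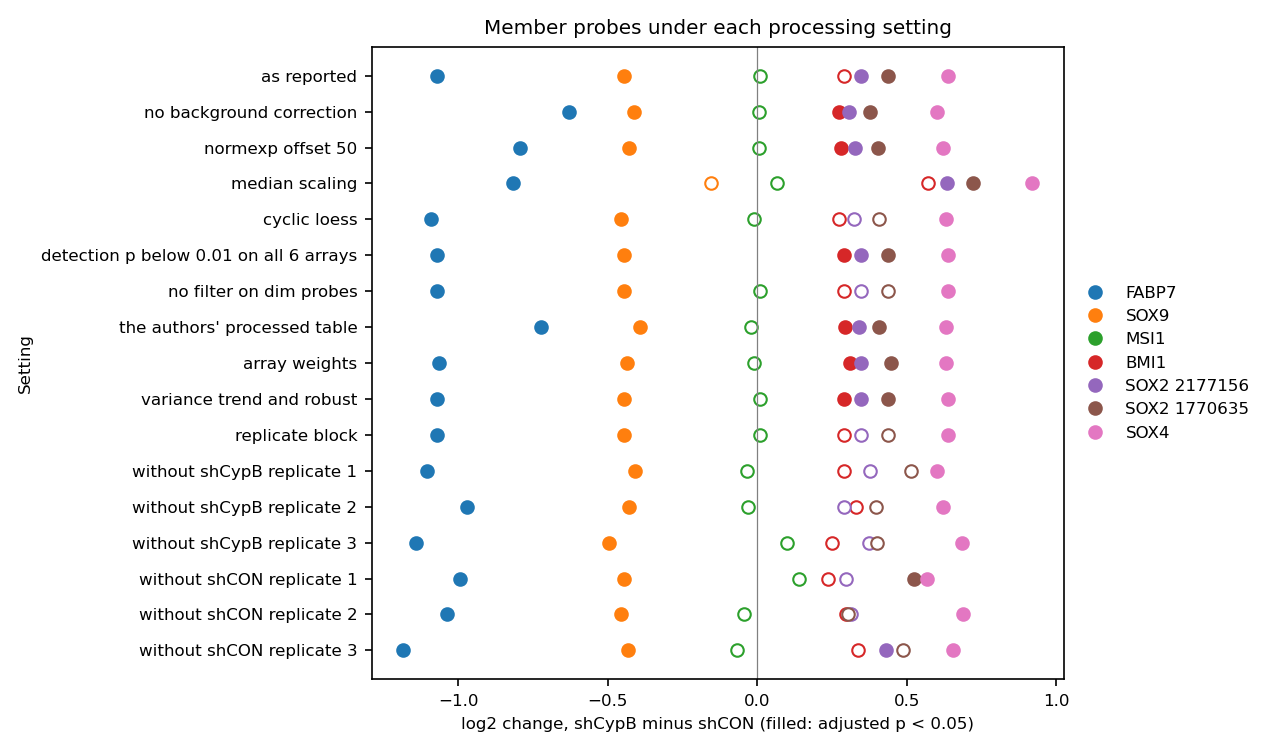
log2 change of each tested member probe (horizontal axis) as reported and under each of 16 other settings (rows), filled where the adjusted p was below 0.05. FABP7 and SOX4 are filled in every row, SOX9 in every row but median scaling, and the SOX2 probes and BMI1 in some.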

How the data were processed

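The authors deposited the bead signal intensity of 47231 probes on 6 arrays, on a linear scale and, per the file headers, without normalization, each with a detection p-value that moves in steps of 1 in 770. They also deposited a table of processed intensity, used only as an alternative. Per the submitters' processing notes, Partek was used (no version). How those values were normalized: not given in the sources used here.

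Signals were corrected with normexp in limma 3.58.1 (R 4.3.3), taking the background from detection p-values (offset 16), then quantile normalized and log2 transformed. Probes detected (p below 0.05) on at least 3 of 6 arrays entered a group-only model (lmFit, eBayes) with 4 residual and 3.51 prior degrees of freedom. The fit was tested on simulated data. Errors are SEs beside log2 changes and SDs beside means. The number of arrays limits the precision. No permutation test was run, since 3 arrays against 3 could not reach the threshold.

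The probe table names 1 gene for 30113 probes, and 30074 of their Entrez identifiers matched RefSeq (GRCh38.p14). A gene was read by its brightest tested probe. Probes of different genes were not ranked by level. The members and gene lists were chosen with earlier results of these data known. Named genes were all members, PPIB, up to 4 called genes of each related list with the greatest changes, and the 2 genes most alike each of 3 members. DLL3, POU3F2, SOX3, SOX13, MSI2, FUT4, PCGF2 and COMMD3, and genes named as undetected, were added after values were seen. Alternatives covered background, normalization, filter, probe rule, weights, variance trend, replicate block and leaving out each array.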

Additional observations from a re-analysis of the deposited data

How the results depend on the processing

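FABP7 (-1.18 to -0.63) and SOX4 (0.57 to 0.92) kept direction and call under all 16 other settings. Median scaling ended the SOX9 call (-0.15) and left 1 member gene lower, and cut the lower calls to 917 probes and 642 genes, so that 79.8% of called genes were higher, against 52.6% with quantile normalization. The call of both SOX2 probes was lost with cyclic loess (0.41 and 0.32), and with no filter on dim probes (0.44 and 0.35, where more probes enter the adjustment), which each left 1 member gene higher. Replicate numbers are shared between the groups, but the deviations of same-numbered arrays had correlations of only -0.10, -0.11 and 0.01. No pairing was seen in these values, although 3 arrays per group cannot show that none was made. With the replicate number as a block 1 member gene was higher, since the SOX2 probes (0.44 and 0.35, adjusted p = 0.081 and 0.087) missed the threshold, and 2042 genes were higher and 1878 lower, against 2426 and 2184. BMI1 passed with no background correction (0.27), offset 50 (0.28), detection p below 0.01 on all 6 arrays (0.29), the authors' table (0.29), array weights (0.31), a variance trend (0.29), and the mean of a gene's tested probes (0.29), which left 3 member genes higher. MSI1, near 0, turned negative with cyclic loess (-0.0125), the authors' table (-0.0205) and array weights (-0.0115). It has no value under the detection p of 0.01 on all 6 arrays. Leaving out each array gave -0.067 to 0.14 for MSI1, 0.30 to 0.52 and 0.29 to 0.43 for the SOX2 probes, and 1 to 2 member genes higher. The cause of these differences was not tested except where stated. 3 arrays per group and a dim signal for MSI1 and FABP7 limit the precision.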
